A study of Mus musculus with 2 samples.

Results

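T-box transcription factors were measured in mouse ureters at E18.5 on 2-colour microarrays that set Rbpj-cKO against control RNA. The 8 genes described here (Tbx1, Tbx2, Tbx3, Tbx4, Tbx5, Tbx15, Tbx18 and Tbx20) were taken by their gene name in the scanner files, which hold 31870 genes or unnamed features in all. They had 10 of the 39429 probes on the array, 3 of them for Tbx20 and 1 for each other gene. Rbpj-cKO embryos had the genotype Tbx18(cre/+);Rbpj(fl/fl) on the NMRI strain, so that cre recombinase made from 1 Tbx18 allele acts on 2 floxed copies of Rbpj, the DNA-binding protein of Notch signalling. Control embryos, also NMRI, were Rbpj(fl/?), with at least 1 floxed Rbpj allele and no cre listed. There were 2 arrays, 1 with male and 1 with female RNA in both channels, on the same slide. Rbpj-cKO RNA was in the red channel on the male array and in the green channel on the female array, so sex and dye orientation change together and cannot be told apart. No source used here gives the number of embryos behind each RNA. The p-values rest on the spread between these arrays, pooled with that of all features by limma.

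T-box factors share a DNA-binding domain, the T-box, that recognises a short element in the promoters and enhancers of their targets, and they activate or repress depending on the member and its partners. Tbx18 marks the mesenchyme around the ureteric bud and is needed for that mesenchyme to form the smooth muscle coat of the ureter, and in these embryos its locus drives cre. Tbx2 and Tbx3 are close relatives that act mainly as repressors in developing mesenchyme, Tbx4 and Tbx5 are known for hindlimb and forelimb outgrowth, Tbx15 for skeletal and dermal development, and Tbx1 and Tbx20 for the pharyngeal apparatus and the heart. In Rbpj-cKO embryos the Tbx18 locus itself differs from the controls, since it carries cre on 1 allele. For Tbx18 the effect of that allele and the effect of Rbpj loss cannot be told apart in this design. With no cre listed for the controls, the cre allele and Rbpj loss also change together for every other gene.

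The oligonucleotides that read these genes are 60 bases long. The first 30 bases, 5′ to 3′, are shown for the 5 genes that gave a usable signal and for a transcript beside Tbx18 described further on, so that each value can be tied to the sequence that was hybridised.
Tbx1 (chr16:18581807-18581866, minus strand, mm9): tgtgtagatactgtagatactgcaccggcg
Tbx2 (chr11:85655391-85655450, plus strand): tttttgctccagagggagaacgaagcgaga
Tbx3 (chr5:120134511-120134570, plus strand): ctttatggtgttttggattggtgtactgag
Tbx4 (chr11:85729510-85729569, plus strand): gacaggcggtatgaaacttcaagtgttttt
Tbx18 (chr9:87599514-87599573, minus strand): gtgcagaagctggttaaatcttagtatatt
D030062O11Rik (chr9:87626691-87626750, plus strand): caggaaaggtgtctccttttatttaggact
The exon in which each probe lies was not analysed here. No source used here says whether the cre allele of Tbx18 gives a transcript that this probe detects.

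The upstream sequence of Tbx18 is shown because cre is driven from this locus and because the factor targeted in these embryos, Rbpj, binds DNA. The window is the 250 bases before the annotated start (RefSeq, GRCm38.p6, chr9:87731261-87731510, minus strand), read 5′ to 3′ along the gene.
Tbx18 upstream: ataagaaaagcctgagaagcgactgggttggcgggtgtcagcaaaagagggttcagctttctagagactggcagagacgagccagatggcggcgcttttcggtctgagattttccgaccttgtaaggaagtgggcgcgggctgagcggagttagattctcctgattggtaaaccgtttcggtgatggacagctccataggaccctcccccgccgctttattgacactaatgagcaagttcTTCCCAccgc
The capitals mark TTCCCA, the reverse complement of the Rbpj core motif TGGGAA, at 10 to 5 bases before the start. The motif was searched on both strands in windows of 250 bases before and 50 bases after each start, and 25.6% of 32851 such promoters hold it. The T-box half-site GGTGTGA, searched the same way and present in 3.98% of promoters, was in none of the 5 promoters listed for Tbx1 (2 of them), Tbx4, Tbx18 and Tbx20. Only the Tbx18 promoter among these 5 held the Rbpj core. A match describes letters in the window and is no measurement of binding.

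Of the 8 genes, 5 passed the filter on dim spots and 3 did not. Tbx1, Tbx2, Tbx3, Tbx4 and Tbx18 were well above background in all 4 channels. The male Rbpj-cKO spot of Tbx18 had 71.5 times the signal of its local background and the male control spot 172 times, while the female Rbpj-cKO and control spots had 155 and 59.1 times. Tbx4 had 6.50, 15.3, 17.4 and 6.20 times in the same order. For each of these 5 genes the green channel gave the higher multiple on both arrays, so the multiples follow the dye, and genotypes are compared on normalised values.

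**Figure D1:**
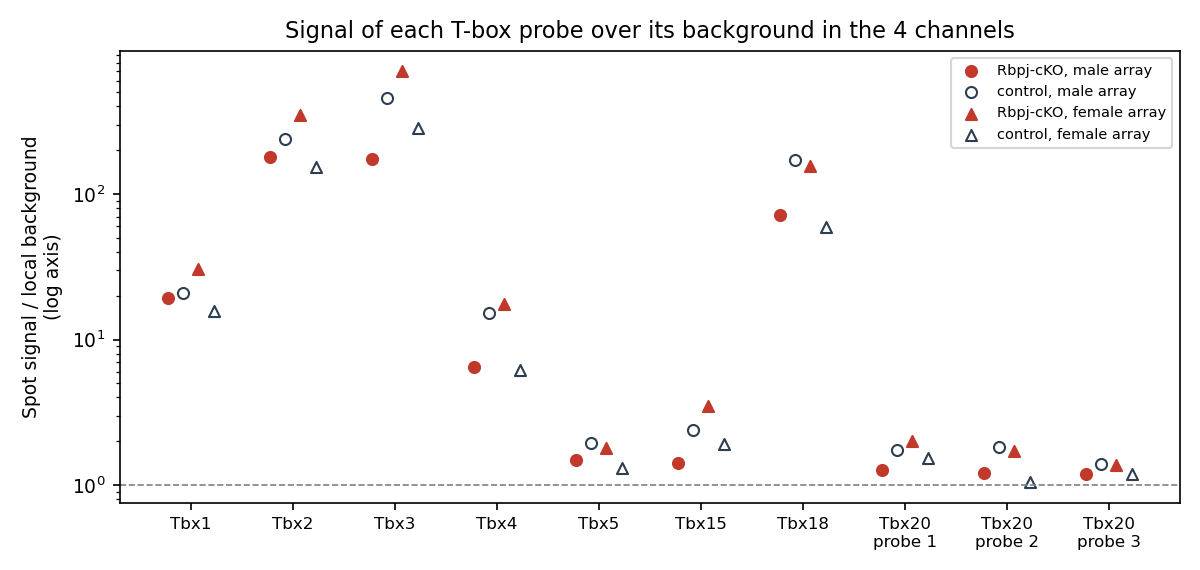
Spot signal divided by local background (log axis) for the 10 T-box probes in the 4 channels, with Rbpj-cKO in filled red and control in open symbols, circles for the male and triangles for the female array. Tbx1, Tbx2, Tbx3, Tbx4 and Tbx18 lie at 6.20 times background or more, and Tbx5, Tbx15 and the 3 Tbx20 probes at 3.49 times or less. The dashed line is a signal equal to background, and green channels (male control, female Rbpj-cKO) read higher than red ones.

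Tbx5, the forelimb and heart factor, was not well above background in any channel, with 1.31 to 1.94 times its local background. None of the 3 Tbx20 probes was well above background in any channel, and they ranged from 1.05 to 2.01 times. Tbx15, the closest relative of Tbx18 in the list, was well above background in both channels of the female array, at 3.49 times in Rbpj-cKO and 1.93 times in control. On the male array Tbx15 was not, at 1.43 and 2.41 times. These 3 genes did not enter the test, and no fold is given for them.

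No difference between the genotypes passed the test for any of the 5 T-box genes tested. Of these 5, 0 passed limma at an adjusted p of 0.05, where 0.129% of the 20989 features tested passed (0.0429% higher and 0.0858% lower in Rbpj-cKO), and 0 of 5 had an unadjusted p under 0.05, as 3.37% of features had. In whole ureters a difference could come from the number of cells of a type or from RNA per cell, which cannot be told apart. The lowest unadjusted limma p was 0.110, for Tbx2, and the adjusted p of each of the 5 was 1.00. All 5 means lay above 0, between 0.16 and 0.40 on the log2 scale (Rbpj-cKO over control), while 51.5% of all features had a mean above 0. On single arrays 4 of the 5 genes had ratios of opposite sign after loess (2 with median centring, where Tbx3 and Tbx18 had 1 sign), as 58.6% of all features did, and the ratios of all features on the male and female array had a Pearson r of -0.18 across genes, which are not independent replicates. The 5 genes came into the test on their brightness and not on their ratio, and the median of their means, 0.31, is given as a description beside 0.01 for all features.

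Tbx18 had a normalised log2 intensity of 12.36 in Rbpj-cKO and 12.47 in control ureters on the male array, and of 12.62 and 12.15 on the female array. The 2 genotypes overlapped, with the highest and the lowest of the 4 values both on the female array. The male array gave a log2 ratio of -0.11 and the female array 0.47 (mean 0.18, SD 0.41, n = 2), and its 95% limma interval ran from -0.28 to 0.65. The interval takes most of its spread from the other features, because the prior of eBayes carries 10.3 degrees of freedom and the 2 arrays carry 1. With median centring in place of loess the male ratio of Tbx18 was 0.08, so its sign on that array depends on the scaling.

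Tbx3, a repressor, had intensities of 14.51 in Rbpj-cKO and 14.52 in control ureters on the male array, and 14.96 and 14.34 on the female array. The male pair was level and the female Rbpj-cKO value stood above the other 3. The log2 ratios were -0.00 and 0.62 (mean 0.31, SD 0.44, n = 2, interval -0.16 to 0.78). The male value became 0.32 with median centring.

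After loess Tbx2, the relative of Tbx3, was the only 1 of the 5 with the same sign on both arrays and with both Rbpj-cKO levels above both control levels. Its intensities were 13.69 and 13.67 in Rbpj-cKO and 13.18 and 13.50 in control ureters on the male and female array. Of all features 14.9% had both Rbpj-cKO levels above both control levels and 12.5% had both below, and 21.7% had both ratios above 0 and 19.7% both below. The log2 ratios of Tbx2 were 0.52 and 0.18 (mean 0.35, a 1.27-fold difference, SD 0.24, n = 2), with an interval of -0.09 to 0.78. Without any normalisation, where a shift shared by all features of an array remains, the female ratio of Tbx2 was -0.31. With median centring, which removes such a shift, the female ratio of Tbx2 was 0.05.

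**Figure D2:**
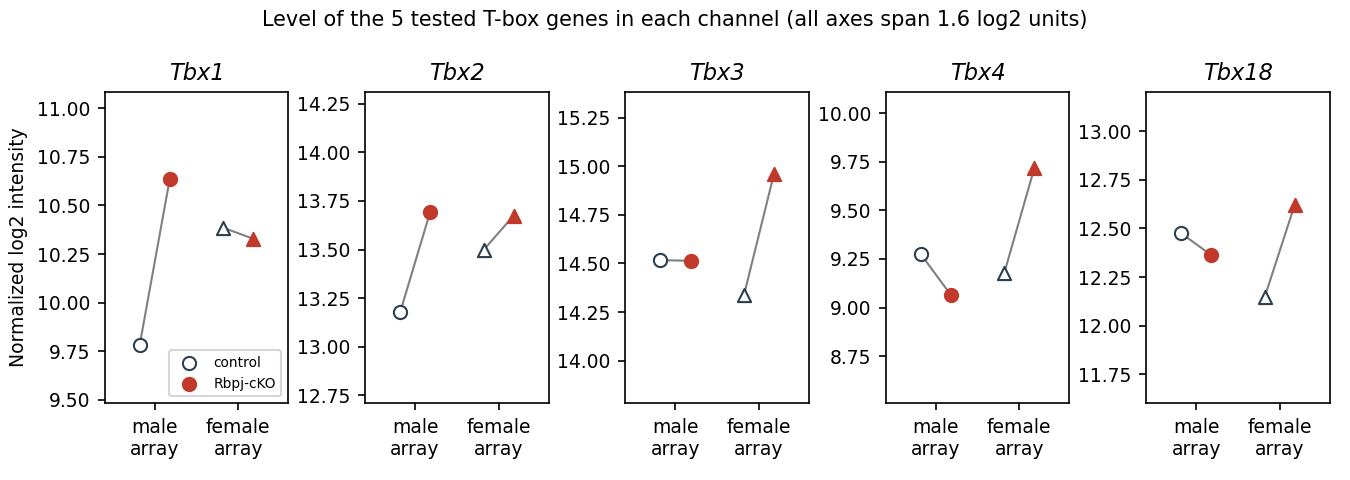
Normalised log2 intensity after loess and Aquantile (vertical axis, each panel spanning 1.6 log2 units) of the 5 tested T-box genes in control (open) and Rbpj-cKO (red) RNA, joined within an array, with circles for the male and triangles for the female array. The lines of Tbx18, Tbx3 and Tbx4 climb on the female array, by 0.47, 0.62 and 0.54, and those of Tbx1 and Tbx2 climb on the male array, by 0.85 and 0.52, with Tbx2 also climbing by 0.18 on the female array.

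Tbx4, the hindlimb factor, resembled Tbx18 and Tbx3 in its pattern over the arrays. Its intensities were 9.06 in Rbpj-cKO and 9.27 in control ureters on the male array and 9.72 and 9.18 on the female array. The log2 ratios were -0.21 and 0.54 (mean 0.16, SD 0.53, n = 2, interval -0.32 to 0.65). Tbx1, whose loss causes pharyngeal arch defects, had the reverse pattern, with 10.64 in Rbpj-cKO and 9.78 in control ureters on the male array and 10.33 and 10.39 on the female array. Its male ratio of 0.85 exceeded that of 99.2% of features on that array, its female ratio was -0.06, and the mean was 0.40 (SD 0.64, n = 2, interval -0.12 to 0.91).

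After loess, the ratios of each of the 5 T-box genes differed more between arrays than those of the median feature, which differed by 0.28. They differed by 0.91 for Tbx1, 0.75 for Tbx4, 0.63 for Tbx3, 0.59 for Tbx18 and 0.34 for Tbx2. A wider disagreement than that of Tbx1 was found in 5.57% of features. The share was 9.65% for Tbx4, 15.1% for Tbx3, 17.6% for Tbx18 and 41.0% for Tbx2. These gaps depend on the scaling. With median centring the male and female ratios were 0.32 and 0.39 for Tbx3 and 0.08 and 0.42 for Tbx18, and without normalisation they were 0.13 and 0.15 for Tbx4, 0.57 and 0.02 for Tbx3 and 0.33 and 0.05 for Tbx18. For Tbx1 and Tbx2 the gaps were wider under both settings. With median centring the male and female ratios were 0.98 and -0.09 for Tbx1 and 0.76 and 0.05 for Tbx2. Without normalisation they were 1.23 and -0.46 for Tbx1 and 1.01 and -0.31 for Tbx2. Tbx1 thus kept opposite signs under these settings. With 2 arrays no test of this difference was possible, and the arrays differ in sex, in dye orientation and in the embryos used.

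**Figure D3:**
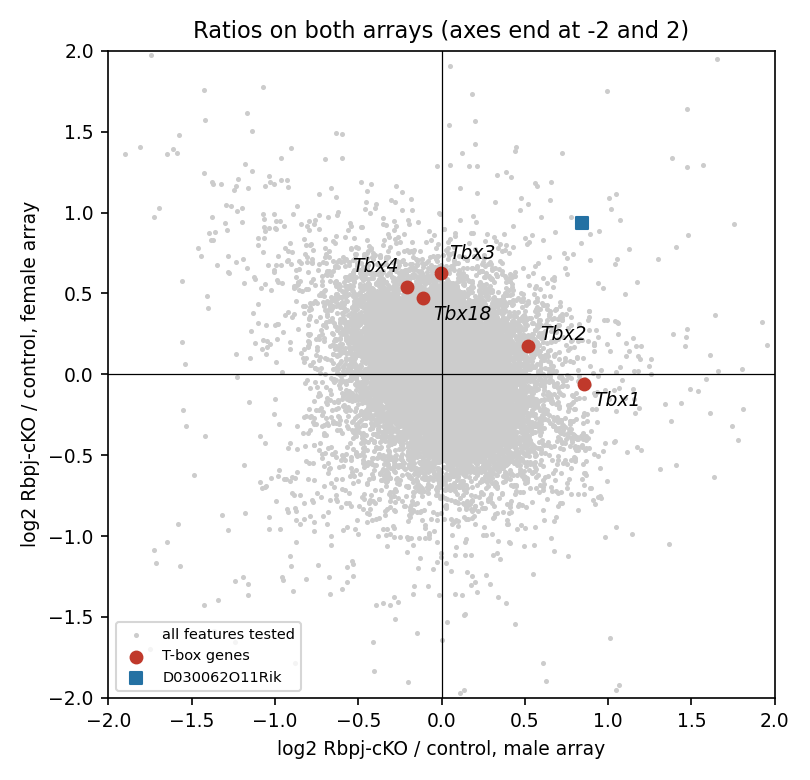
Log2 ratio after loess of Rbpj-cKO over control on the male (horizontal) and female (vertical) array for all 20989 features tested (grey, axes ended at -2 and 2), the 5 T-box genes (red) and D030062O11Rik (blue). Tbx18, Tbx3 and Tbx4 lie together near the vertical axis, Tbx1 and Tbx2 lie to the right, and D030062O11Rik is at 0.84 and 0.94.

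By the distance between pairs of array ratios, the features nearest to Tbx18 over the 2 arrays were Carmil1 (distance 0.00474), Ccdc150 (0.00490) and Yeats2 (0.00509). With only 2 arrays many features lie close to any point, and the likeness is a description of these ratios.

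Over 10 other ways of processing, the mean of each of the 5 genes stayed above 0 and none passed the test (lowest limma adjusted p 1.00). The mean of Tbx18 ranged from 0.14 to 0.25, that of Tbx1 from 0.39 to 0.48, that of Tbx2 from 0.35 to 0.41, that of Tbx3 from 0.27 to 0.35 and that of Tbx4 from 0.14 to 0.20. Of these settings 5 leave the ratio of a gene with 1 probe as it is. The processed signals of the scanner and the value table deposited for the series gave the same ratios as each other for these genes. The ratios on single arrays moved further than the means, for example from -0.00 to 0.57 for Tbx3 on the male array and from 0.18 to -0.31 for Tbx2 on the female array without normalisation. Ratios without normalisation still hold any shift shared by all features of their array.

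**Figure D4:**
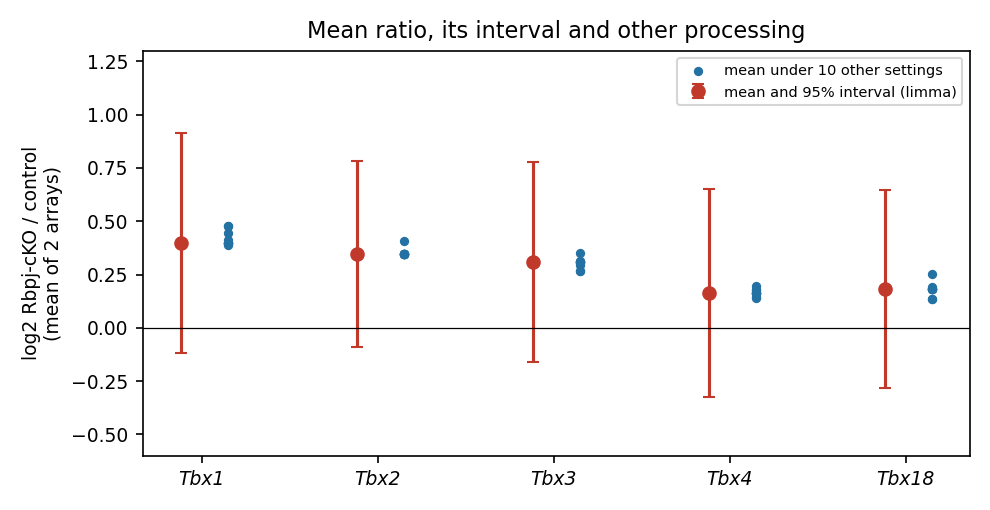
Mean log2 ratio of Rbpj-cKO over control for the 5 tested T-box genes with its 95% limma interval (red, n = 2 arrays), beside the means under 10 other processing settings (blue). Each interval spans 0, from -0.28 to 0.65 for Tbx18, and each set of blue points stays above 0.

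The genome neighbourhood of the T-box genes was examined on the positions in the files (mm9), within 500 kb of each probe. D030062O11Rik, a transcript read from the plus strand, was higher in Rbpj-cKO ureters on both arrays. It was chosen after its values were seen. Its probe lay 27.2 kb from the Tbx18 probe, which reads the minus strand, on the side of the 5′ end of Tbx18. The distance to the Tbx18 gene itself was not derived. Its intensities were 8.84 in Rbpj-cKO and 7.995 in control ureters on the male array and 9.21 and 8.27 on the female array. The genotypes did not overlap, and 14.9% of all features likewise had both Rbpj-cKO levels above both control levels. The spot signal of D030062O11Rik over its local background was lowest in the female control (3.92-fold) and highest in female Rbpj-cKO (13.4-fold), which was the green channel. On the male array, with control in green, it was 6.04-fold in Rbpj-cKO and 5.75-fold in control. These multiples follow the dye in the T-box genes and are no comparison of genotypes. Its log2 ratios were 0.84 and 0.94 (mean 0.89, a 1.85-fold difference, SD 0.07, n = 2, interval 0.46 to 1.31), and its limma adjusted p was 0.246. It was 1 of 134 features (0.638%) with a difference of 1.5-fold or more, the same way, on each array, and 0 of the 5 T-box genes were. Without background correction its adjusted p was 0.0275 (mean 1.01), and over the 9 other settings it was 0.0997 or more. No source used here says whether the cre allele holds this sequence.

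Tbx3 and Tbx5 are neighbours on chromosome 5, and Tbx2 and Tbx4 on chromosome 11. Upstream of Tbx3, the long noncoding RNAs Gm2301, which RefSeq lists as Tbx3os1, and AW549542 had male log2 ratios of 0.04 and 0.08 and female ratios of 0.34 and 0.85, against -0.00 and 0.62 for Tbx3. Beside Tbx2, the noncoding RNA 2610027K06Rik had 0.02 and 0.40 and the gene Bcas3 had 0.08 and 0.24 at its nearer probe, against 0.52 and 0.18 for Tbx2. The limma adjusted p of each of these 4 neighbours was 1.00. After loess, the Tbx3 side showed its higher values on the female array, as Tbx3 did. Tbx2 differed in that from the transcripts next to it. For Tbx3 the pattern depends on the scaling. Its male and female ratios were 0.32 and 0.39 with median centring, and 0.57 and 0.02 without normalisation. These neighbours were not examined under those settings.

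**Figure D5:**
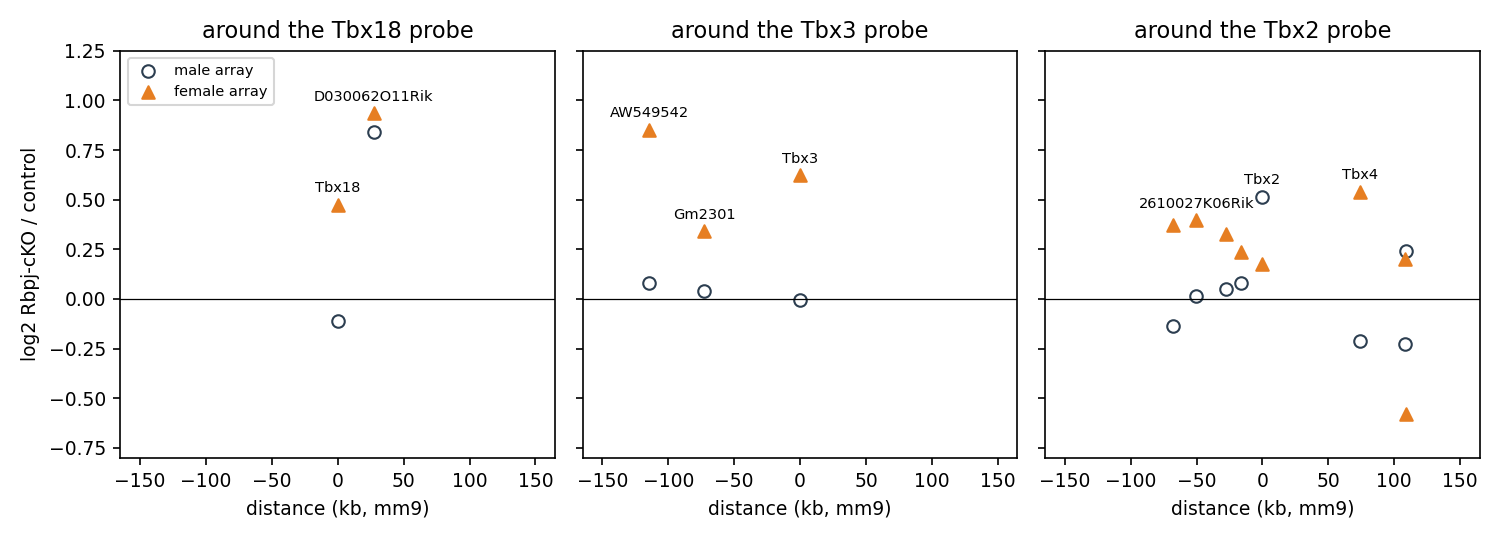
Log2 ratio after loess of Rbpj-cKO over control on the male (open circles) and female (orange triangles) array for probes well above background. The horizontal axis is the distance in kb from the Tbx18, Tbx3 and Tbx2 probe. D030062O11Rik, at 27.2 kb from the Tbx18 probe, is high on both arrays (0.84 and 0.94). Gm2301 and AW549542 beside Tbx3 are at 0.34 and 0.85 on the female and at 0.04 and 0.08 on the male array.

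The rest of the T-box family held 9 genes, of which 5 were tested and 0 passed. Tbx6, a paraxial mesoderm factor, had the highest mean (0.21, from a male ratio of 0.55 and a female ratio of -0.12) and Tbr1, known from cortical neurons, the lowest (-0.09). Mga had -0.02, Tbx10 -0.02 and Tbx22 0.03. At the brightest probe of each gene all 5 had opposite signs on the arrays, while the second Tbx6 probe, also well above background, had 0.06 and 0.28. The germ layer factors T and Eomes, the pituitary factor Tbx19 and the T helper cell factor Tbx21 were not well above background on both arrays in either genotype. The median of the 5 tested was -0.02.

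Partners and corepressors of T-box factors (14 genes, all tested) had a median log2 ratio of -0.01 and 0 passed. The Groucho corepressor Tle1 was highest (0.36) and Tle4 lowest (-0.20). Genes that T-box factors regulate in other settings (14 of 15 tested) had a median of 0.05 and 0 passed. Fgf10, which Tbx4 and Tbx5 induce in limb and lung mesenchyme, was lowest (male -0.88, female -0.74, mean -0.81, interval -1.24 to -0.39, limma adjusted p = 0.335). Gja5, a connexin repressed by Tbx2 and Tbx3 in the heart, was highest (0.44), and the cell cycle inhibitors Cdkn1a, Cdkn1b, Cdkn1c and Cdkn2a had 0.06, -0.08, -0.15 and -0.21.

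Regulators of the ureteric mesenchyme (15 genes, all tested) had a median of 0.09 and 0 passed. Rbpj, the targeted gene, was lowest, with -1.58 and -0.93 (mean -1.25, limma adjusted p = 0.0760), and Bmp4 was highest (0.56). Tcf21 and Foxf1a, mesenchymal factors expressed beside Tbx18, had 0.27 and 0.09, and Sox9 had -0.47. Of the markers of the labelled tissue, 8 of 8 urothelial and 8 of 8 smooth muscle markers were well above background.

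Markers of other tissues in the sample differed in direction between lists, and their part in the T-box values was not tested. Sums over a list are log2 of summed normalised intensities and are carried by its brightest probes. The summed level of the 5 T-box genes was 15.43 and 15.70 in Rbpj-cKO and 15.28 and 15.24 in control ureters (male and female). The 8 smooth muscle markers summed to 19.30 and 19.29 in Rbpj-cKO and 19.61 and 19.47 in control (median ratio -0.32, Des lowest at -0.64 and Smtn highest at 0.16). The 8 urothelial markers summed to 19.63 and 19.71 against 19.33 and 19.47 (median 0.27, Trp63 lowest at 0.01 and Krt5 highest at 0.55). The 8 mesothelial markers summed to 17.55 and 17.71 against 17.43 and 17.25 (median 0.30, male median 0.47 and female median -0.05, Lrrn4 lowest at -0.31, from 1.01 and -1.63, and Muc16 highest at 0.49). The female mesothelial sums followed Krt19, which the urothelium also makes, at 17.33 in Rbpj-cKO and 16.72 in control. None of these members passed. Skeletal and cardiac muscle markers, a context in which Tbx1, Tbx15 and Tbx20 are known, had a median of -1.20 over 6 of 8 measured. In that list 3 of the 6 passed as lower in Rbpj-cKO, as 0.0858% of all features did. They were Myh6, Ckm and Myl4 (limma adjusted p 0.000755, 0.0203 and 0.0356). All 6 were lower on both arrays, as 19.7% of all features were (Myh6 lowest at -2.36, Myh3 highest at -0.26). Myod1 and Myog were not well above background. In the other lists 0 members passed. Nephron progenitor and renal stroma markers (8) had a median of -0.04, from Foxd1 at -0.82 to Six2 at 1.17. Nerve and glial markers (8) had -0.29, from Nefm at -0.63 to Prph at 0.36, with a male median of 0.11 and a female median of -0.40. Their summed level was 15.37 in the female control and 14.18 to 14.40 in the other 3 channels, and the noradrenergic enzymes Dbh (1.42 and -2.32) and Th (0.61 and -1.79) had opposite ratios on the arrays. Adipocyte markers (3 of 6) had 0.05, from Plin4 at -1.02 to Pparg at 0.15, with a male median of 0.13 and a female median of -0.32. Endothelial and blood markers (8) had -0.02, from Hbb-y at -0.36 to Slc4a1 at 0.43, which was -0.63 and 1.49 on the arrays.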

How the data were processed

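Per the labels' protocols, total RNA from dissected ureters was amplified to aminoallyl cRNA and coupled to AlexaFluor555 or AlexaFluor647. Scanner output was made with Agilent Feature Extraction 10.7.3.1, per the submitters' processing notes. In the deposited files, per the file headers, mean and background signals are an intensity without normalization, processed signals are a background-subtracted, detrended and dye-normalized intensity, and LogRatio is red over green on a log10 scale. In the deposited value table of the series each probe has a score, and no source used here says how it was made. For 98.5% of tested features on each array it lay within 0.01 of the log2 ratio of the processed signals, when read as a fold with a sign, with a median of 1.0 in each column.

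Mean signals were corrected with normexp (offset 50) and normalized by loess in each array, control spots at weight 0 (limma 3.58.1, R 4.3.3). Control and outlier spots were left out, spots of a probe were averaged, and ratios were turned to Rbpj-cKO over control. Levels are after loess and Aquantile, and are not comparable between probes. Probes well above background on both arrays in 1 genotype's channel were kept, and a gene was represented by its brightest probe. This left 20989 features, of 39429 probes, tested with lmFit and eBayes, two-sided, and Benjamini-Hochberg adjusted p-values over them were called at 0.05. Between 66.8% and 71.1% of probe spots were well above background per channel, and 0 were saturated. Precision is limited by having 2 arrays. Simulated data were used to check the test. All members were named whatever their values, and in other lists the highest and lowest, with a few further members named after their values were seen. Members and lists were chosen with earlier results of these data known. Promoters were matched by symbol for 4 of the 8 genes. Alternatives covered background correction, normalization, the filter on dim probes, the probes of a gene, the variance prior and leaving out an array.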

Additional observations from a re-analysis of the deposited data

Results flagged for a closer look

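The ratios of 4 T-box genes had opposite signs on the male and the female array after loess. The male ratio of Tbx3 (-0.00319) and the female ratio of Tbx1 (-0.0571) were close to 0. The female minus the male log2 ratio of Rbpj-cKO over control was -0.91 for Tbx1, 0.75 for Tbx4, 0.63 for Tbx3 and 0.59 for Tbx18. Each sex had 1 array with its own dye orientation, so the difference was not tested, and sex and dye orientation cannot be told apart. Opposite signs were found for 58.6% of all features. The opposite signs depend on the scaling for Tbx3 and Tbx18. Tbx4 kept them with median centring (male -0.12, female 0.51) and lost them only without any normalization, where a shift shared by a whole array remains. The male value was above 0 with median centring for Tbx3 and Tbx18 (0.32 and 0.08) and without normalization for Tbx3, Tbx18 and Tbx4 (0.57, 0.33 and 0.13), with female values of 0.02, 0.05 and 0.15 there. For Tbx3 it was also above 0 with the processed signals (0.06) and without background correction (0.000756). Tbx1 had opposite signs under each of these settings.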

How the results depend on the processing

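The count of T-box genes past the test was 0 under all 10 settings that gave a test, and the 50 means of the 5 genes under them kept their sign. Of these settings 5 leave the ratio of a gene with 1 probe as it is, and change only the features tested or the spread. The processed signals and the deposited value table gave the same ratios as each other for the T-box genes. The count over all features, 27, did depend on the processing: it was 69 without background correction, 42 with every probe as a feature, 41 with an intensity trend in the prior, 26 with probes well above background in all 4 channels and 10 when the probes of a gene were averaged. It was 1 without normalization, and 0 with the processed signals of the scanner, the deposited value table, median centring and without a filter on dim probes. The cause was not tested. Leaving out 1 array gave values from -0.0571 to 0.85 for Tbx1, 0.18 to 0.52 for Tbx2, -0.00319 to 0.62 for Tbx3, -0.21 to 0.54 for Tbx4 and -0.11 to 0.47 for Tbx18, with no test, since 0 residual degrees of freedom remain. The test used the pairing of genotypes within an array, because each ratio sets both genotypes against each other on 1 array.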
